A study of Mus musculus with 14 samples.

Results

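The response of mouse macrophages to the double-stranded RNA poly(I:C) in the presence of GW3965 was measured as the difference between 2 arrays of cells given both agents and 2 arrays of untreated cells. These 4 arrays were chosen by their titles from 14 arrays in 7 groups of 2, and all 10012 probes of the value table were considered. The other 5 groups received poly(I:C) alone, LPS alone, GW3965 with LPS, or the PPARγ agonist GW7845 with either stimulus. All cells were thioglycollate-elicited macrophages, which gather in the peritoneum after injection of an irritant broth, from female C57BL/6 mice aged 6 weeks. No group received GW3965 alone, so its effect without a stimulus is not part of any comparison here. Doses, times and any pooling of animals are not stated in the labels. The series text calls the 2 arrays of a group biological replicates without naming animals or cultures, so the p-values measure only the spread between these samples, which may be technical.

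Poly(I:C) is a synthetic double-stranded RNA that macrophages detect with Toll-like receptor 3 in endosomes and with the helicase MDA5 in the cytosol. Both routes activate NF-kappaB and interferon regulatory factors, which turn on cytokine genes and type I interferon. Secreted interferon then acts through STAT proteins on a large antiviral gene programme. GW3965 activates the liver X receptors (LXRs), which are nuclear receptors that sense oxysterols, raise genes of cholesterol efflux and lipid synthesis, and are known to restrain inflammatory genes in macrophages. The stated subject of the series is how PPARγ and LXRs repress Toll-like receptor responses differently, and the comparison with untreated cells asks which response is left when the LXR agonist is present.

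The promoters of a chemokine, an antiviral gene and a cytokine gene that stood among the largest increases are shown as examples of genes that NF-kappaB and interferon regulatory factors are known to control. The letters are the 250 bases before the start site in RefSeq, build GRCm38.p6, written 5′ to 3′ in the direction of transcription. Cxcl10 is on the minus strand at chr5:92348890-92349139, Ifit1 on the plus strand at chr19:34640639-34640888 and Il6 on the plus strand at chr5:30012864-30013113. Capitals mark matches on either strand to AANNGAAA, the core bound by interferon regulatory factors, or to GGNNTTTCC, a common form of the NF-kappaB site.
Cxcl10: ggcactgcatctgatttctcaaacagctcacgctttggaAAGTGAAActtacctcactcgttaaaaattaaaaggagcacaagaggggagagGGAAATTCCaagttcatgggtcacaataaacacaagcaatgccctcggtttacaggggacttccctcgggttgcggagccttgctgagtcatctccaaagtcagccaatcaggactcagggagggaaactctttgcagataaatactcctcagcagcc
Ifit1: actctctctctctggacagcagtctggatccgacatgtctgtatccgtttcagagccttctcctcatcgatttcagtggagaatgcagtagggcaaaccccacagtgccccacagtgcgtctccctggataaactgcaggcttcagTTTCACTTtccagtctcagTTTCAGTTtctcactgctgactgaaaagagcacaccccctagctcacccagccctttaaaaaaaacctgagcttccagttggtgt
Il6: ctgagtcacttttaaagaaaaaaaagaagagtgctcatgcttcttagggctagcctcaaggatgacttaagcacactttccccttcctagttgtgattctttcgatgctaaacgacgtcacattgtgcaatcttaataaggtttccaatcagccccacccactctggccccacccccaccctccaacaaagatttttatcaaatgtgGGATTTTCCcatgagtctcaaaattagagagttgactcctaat
Cxcl10 held 1 interferon regulatory factor core and 1 NF-kappaB form, Ifit1 held 2 of the cores, and Il6 held 1 NF-kappaB form. Among 27025 promoters of the table, 21.7% held at least 1 core, 4.87% an NF-kappaB form and 14.0% the nuclear receptor half-site AGGTCA. These matches describe letters and not occupied sites, and the 2 motifs shown did not overlap each other in these windows.

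Values below are log2 intensities, on a scale where the median probe of every array is at 0, and a difference of 1 is a doubling. Each group had 1 array in each of 2 array sets, here called A and B, which differ in their low end: set A had 10th percentiles of 0.137 to 0.271, and set B had 10th percentiles of 0.0549 to 0.0833. Paired values are given as set A and then set B, and fold changes come from a limma fit to all 14 arrays with the set as a block. Intensities below 0.0686 were raised to that floor, at -3.87 on the log2 scale, which held 0.664% to 1.88% of tested probes in set A and 5.39% to 11.5% in set B. Within a group, the Spearman correlation across probes was 0.966 between the arrays of GW3965 plus poly(I:C) and 0.953 between the untreated arrays. All 12 macrophage markers looked for that had a tested probe were above the floor on at least 1 array of both groups, and their summed intensity was 1897 and 1466 with GW3965 plus poly(I:C), against 2034 and 1179 in untreated cells. Of the 12, Cd14, Msr1 and Cebpb were higher than in untreated cells by 1.97, 0.89 and 2.05, and Cebpa was lower by 2.60, in the limma fit, while 1 was higher and 1 lower without the set as a block. Msr1 was not called on leaving out any 1 of the 4 arrays compared (0.75 to 1.03). In RNA from bulk samples, fewer cells of a type and less RNA per cell cannot be told apart.

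Against untreated cells, GW3965 plus poly(I:C) changed 1648 of 9486 tested probes (17.4%) at a Benjamini-Hochberg adjusted p under 0.05 in limma. Of these, 864 were higher (9.11%) and 784 lower (8.26%), and all of them had the same direction in both array sets. The calling itself favours this, because each change is the mean of the 2 set differences, so it is not independent replication. The increases were the larger changes: 346 of the higher and 170 of the lower probes differed at least 4-fold, and 72 and 4 at least 16-fold. The median change was +1.76 among called increases and -1.45 among called decreases, while the median over all tested probes was 0.00. In 851 of the higher and 761 of the lower probes, both arrays of one group lay beyond both of the other, which held for 21% of all tested probes in the upward and 20.4% in the downward direction. With no block for the set, 442 probes were higher (4.66%) and 194 lower (2.05%). Without GW3965 plus poly(I:C) replicate 1 the counts were 514 and 271, and without untreated replicate 1 they were 579 and 328.

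**Figure D1:**
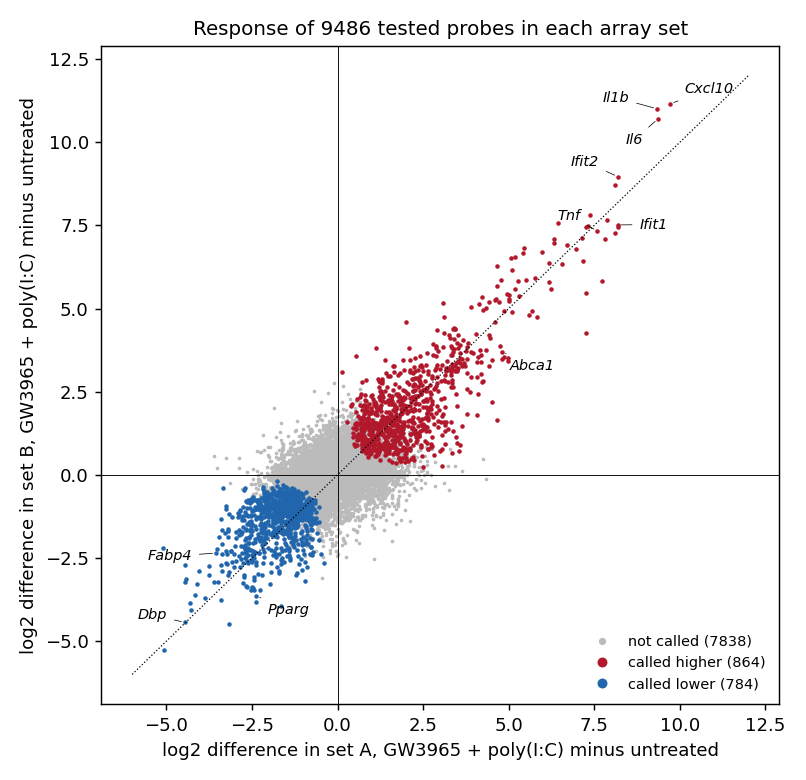
Difference in log2 intensity between GW3965 plus poly(I:C) and untreated cells for each tested probe, array set A on the horizontal and array set B on the vertical axis, with called probes in colour. The 864 called increases and 784 called decreases have the same direction in both sets, and the increases reach 10.44 on the log2 scale.

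The chemokine Cxcl10, which attracts activated T cells and is a classic interferon target, had the largest increase. Its log2 intensity was 8.48 and 8.29 with GW3965 plus poly(I:C), 9.93 and 8.93 with poly(I:C) alone, and -1.25 and -2.87 in untreated cells. The difference from untreated was 10.44 (SE 0.38, adjusted p = 2.4e-10, limma). The groups with poly(I:C) stood far above the untreated arrays. Both arrays with GW3965 lay below both arrays of poly(I:C) alone, but the difference of -1.05 did not pass (adjusted p = 0.65, limma). Il6, a cytokine of the acute phase response, was at 7.70 and 7.90 with both agents, 9.32 and 8.50 with poly(I:C) alone, and -1.66 and -2.80 without treatment, an increase over untreated of 10.03 (SE 0.33, adjusted p = 2.4e-10, limma). Il1b, which encodes the fever-inducing cytokine IL-1β, was at 10.01 and 9.62 with both agents, against 0.67 and -1.39 in untreated cells, an increase of 10.17 (SE 0.59, adjusted p = 2.2e-08, limma). For all 3 genes the treated and untreated arrays were separated by more than 9 units in each set.

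**Figure D2:**
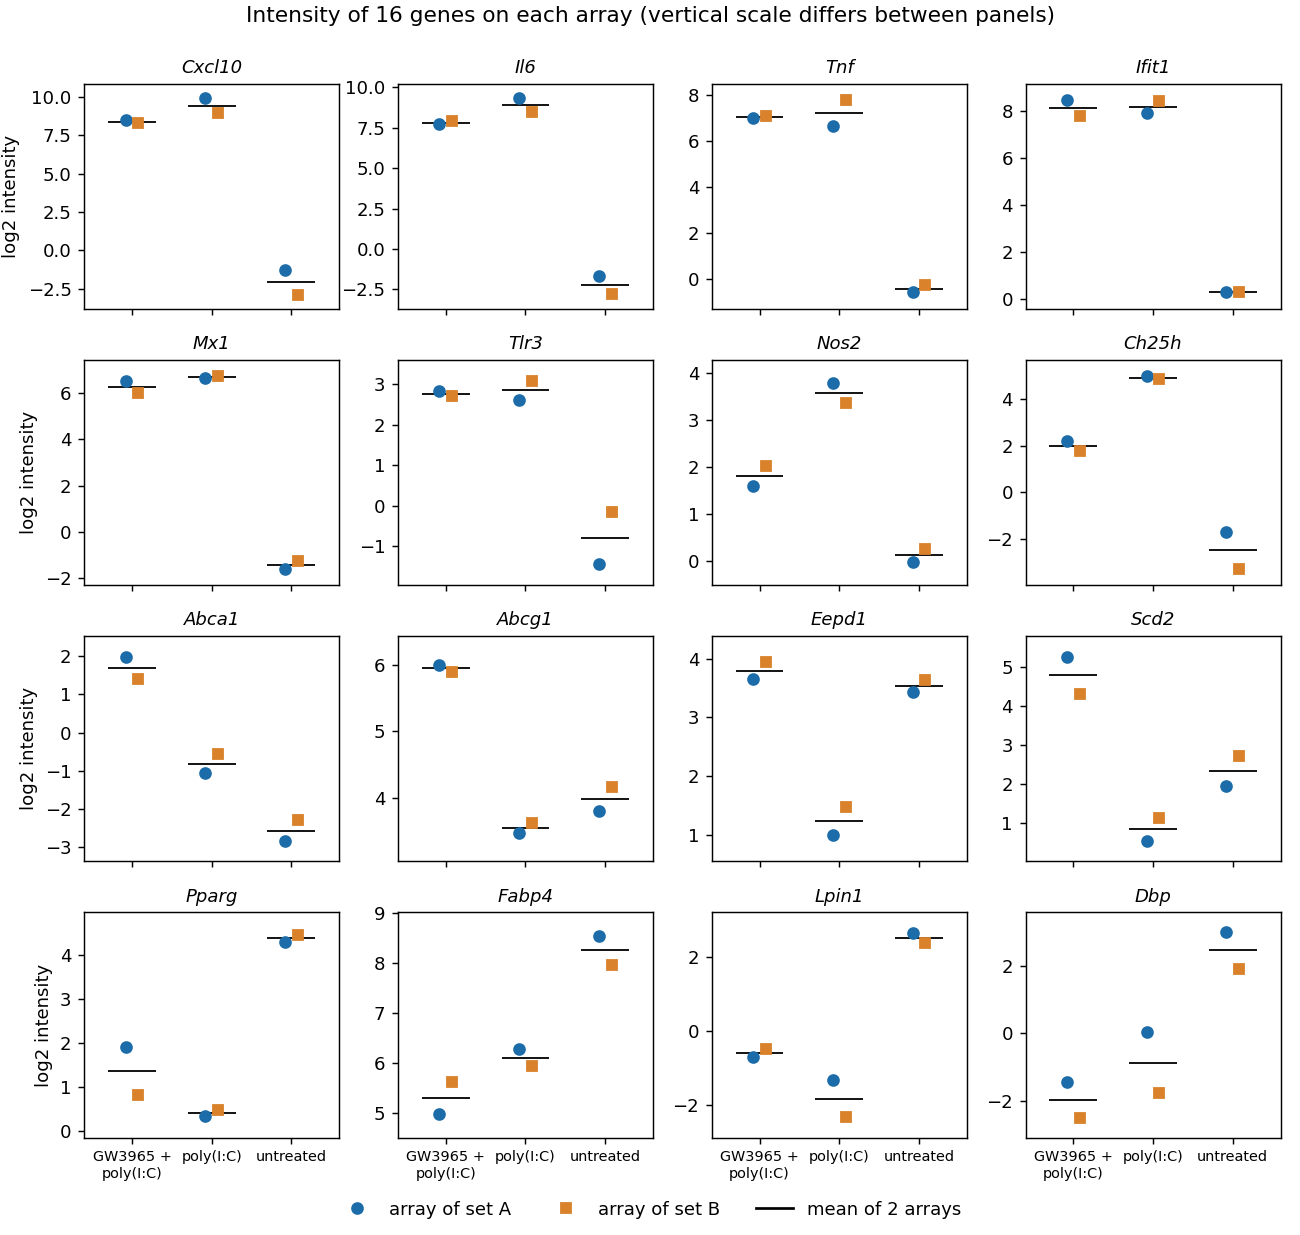
Log2 intensity of selected genes on each array of GW3965 plus poly(I:C), poly(I:C) alone and untreated cells, with a circle for the array of set A, a square for that of set B and a line at their mean. Cxcl10, Il6 and Ifit1 are high in both stimulated groups, Abca1, Abcg1 and Scd2 are highest with GW3965 present, and Pparg is lower in both stimulated groups than in untreated cells.

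Inflammatory cytokine genes rose as a group: of 19 measured, 14 were higher, 1 was lower and 4 did not pass, and the list's median change was +3.31. All genes tested, with 1 probe each, give the scale for such counts: 773 of 8383 were higher, 673 were lower, and the median was 0.01. The gene lists here and below were chosen with earlier results of these data known, so their counts are not independent evidence. Tnf, the first-wave inflammatory cytokine, was at 6.98 and 7.07 with GW3965 plus poly(I:C), against -0.61 and -0.27 in untreated cells, an increase of 7.46. Il12a, which encodes a subunit of IL-12, rose by 8.40 and Il1a by 6.78, and the anti-inflammatory Il10 rose by 2.02. Il10 passed with the array set as a block (adjusted p = 0.0004, limma) and not without it (0.056). The only member that fell was Lta, a relative of Tnf made mostly by lymphocytes, which was lower by 1.70 on the log2 scale and did not pass without GW3965 plus poly(I:C) replicate 1 (-1.19, adjusted p = 0.11, limma) or untreated replicate 1 (-1.44, adjusted p = 0.079), nor without the block (0.053).

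Of 25 chemokine genes measured, 16 were higher, 1 was lower and 8 did not pass, with a median change of +2.61. Cxcl1, a neutrophil attractant, was at 7.91 and 7.55 with GW3965 plus poly(I:C), against 0.78 and 0.44 in untreated cells, an increase of 7.12. The monocyte attractants Ccl2, Ccl7 and Ccl12 rose by 5.32, 6.14 and 5.16, and Ccl5, which attracts T cells and monocytes, rose by 5.79. Cxcl9 and Cxcl11, which share the receptor of Cxcl10, rose by 5.20 and by at least 5.46, the second a bound because 1 untreated array was at the floor. Cxcl14 was the member that fell, by 1.49, and it did not pass without GW3965 plus poly(I:C) replicate 1 (-1.12) or without either untreated array (-1.27 and -1.72). It also missed the threshold without the array-set block (adjusted p = 0.27, limma), with the replicate number as the block in place of the set (0.12) and with quantile normalization (0.093). The homeostatic chemokine gene Cxcl12, with a difference of -0.16, and the platelet chemokine gene Pf4, with 0.11, did not pass.

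All 38 interferon-stimulated antiviral genes measured were higher than in untreated cells, with a median change of +4.49 and medians of 4.59 and 4.49 in the 2 array sets. Ifit1, whose product binds viral RNA that lacks a host cap, was at 8.46 and 7.79 with GW3965 plus poly(I:C), 7.93 and 8.45 with poly(I:C) alone, and 0.28 and 0.28 in untreated cells. Its increase over untreated was 7.85 (SE 0.38, adjusted p = 4.2e-09, limma). The arrays with and without GW3965 overlapped for Ifit1, and both groups stood apart from the untreated one. Mx1, a GTPase that blocks influenza viruses in mice with an intact gene, was at 6.53 and 6.02 with both agents, 6.66 and 6.72 with poly(I:C) alone, and -1.58 and -1.25 without treatment, an increase of 7.69. Among the others, Ifit2 rose by 8.58, Ifit3 by 7.77, Mx2 by 7.59, Cmpk2 by 7.40 and Rsad2, which encodes the antiviral enzyme viperin, by 7.36. The guanylate-binding protein gene Gbp4 rose by 6.71 and the interferon-inducible GTPase gene Tgtp1 by 6.81, and the smallest increase in the list was that of Oas1c at 1.46.

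The sensors that detect double-stranded RNA rose as well. Tlr3, the endosomal receptor for poly(I:C), was at 2.83 and 2.69 with GW3965 plus poly(I:C), 2.61 and 3.07 with poly(I:C) alone, and -1.43 and -0.14 in untreated cells, an increase of 3.55 (SE 0.35, adjusted p = 5.3e-06, limma). Ifih1, which encodes MDA5, rose by 4.99, its regulator Dhx58 by 3.89, and the double-stranded RNA-activated kinase gene Eif2ak2 by 3.61. Of 21 receptor and adaptor genes measured, 13 were higher and 1 was lower, the kinase gene Irak1 by 1.05 on the log2 scale. Irak1 was not called without GW3965 plus poly(I:C) replicate 1 (-0.97) or 2 (-1.13), or without untreated replicate 1 (-0.93), nor without the array-set block (adjusted p = 0.34, limma) or with the replicate block (0.18). Tlr4, the receptor for LPS, had a difference of -0.76 and did not pass, while Tlr2, a receptor for bacterial lipoproteins, rose by 3.41 and the adaptor gene Myd88 by 2.49.

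Of 14 genes for interferon regulatory factors and STATs, 8 were higher and none was lower in limma with the array set as a block, where 9.11% of all probes were higher and 8.26% lower. Irf7, the factor that amplifies type I interferon, was at 9.11 and 9.25 with GW3965 plus poly(I:C), 9.60 and 9.66 with poly(I:C) alone, and 5.79 and 5.39 in untreated cells, an increase of 3.59. Irf1 rose by 3.75, and Stat2 and Irf9, which form the complex that carries the type I interferon signal to DNA, rose by 3.61 and 2.02. Irf3, which is present before stimulation and is activated by phosphorylation, had a difference of -0.23 and did not pass. The type I interferon gene Ifna7, whose probe may also bind transcripts of its close relatives, was at 3.22 and 2.72 with GW3965 plus poly(I:C), 4.67 and 3.42 with poly(I:C) alone, and -0.42 and -0.78 in untreated cells. Its increase was 3.57, and the untreated arrays were far below both stimulated groups. Among 5 interferon and receptor genes, 3 were higher. Ifng, a cytokine known mainly from lymphocytes, was at -0.16 and -0.10 with GW3965 plus poly(I:C), against -3.66 and -3.33 in untreated cells, an increase of 3.37 (adjusted p = 0.0019, limma). The receptor gene Ifnar2, at 1.91, did not pass without the block (adjusted p = 0.26), without GW3965 plus poly(I:C) replicate 1 (0.98, adjusted p = 0.52) or without untreated replicate 1 (1.52, adjusted p = 0.32) or 2 (2.30, adjusted p = 0.085). Ifnb1 was not analysed here. Without GW3965 plus poly(I:C) replicate 1 or untreated replicate 1, and without the block, 4 of the 14 factor genes passed.

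Enzymes and mediators of inflammation included some of the strongest increases, with 16 of 26 measured genes higher, 1 lower and a median change of +2.69. Ptx3, a soluble pattern recognition protein, was at 4.33 and 3.59 with GW3965 plus poly(I:C), and both untreated arrays were at the floor, which gives an increase of at least 7.82. Ptgs2, the inducible cyclooxygenase of prostaglandin synthesis, was at 3.95 and 3.30, against the floor and -3.80 in untreated cells, an increase of at least 7.46. Edn1, which encodes the vasoconstrictor endothelin-1, rose by 6.88, Ptges, the next enzyme of prostaglandin E2 synthesis, by 5.21 and Clec4e, a receptor for mycobacterial glycolipid, by 5.56. Nos2, the inducible nitric oxide synthase, was at 1.60 and 2.01 with GW3965 plus poly(I:C), 3.79 and 3.36 with poly(I:C) alone, and -0.03 and 0.26 in untreated cells. Its increase over untreated was 1.69 (SE 0.36, adjusted p = 0.0051, limma), and the 3 groups did not overlap. That call was lost without GW3965 plus poly(I:C) replicate 2 (difference 1.43, adjusted p = 0.059, limma) and without untreated replicate 1 (1.50, adjusted p = 0.07). Arg1, an arginase that competes for the substrate of nitric oxide synthase, was the member that fell, by 1.82, and it did not pass without GW3965 plus poly(I:C) replicate 2 (-1.25, adjusted p = 0.25) or untreated replicate 2 (-1.30, adjusted p = 0.26). Arg1 also missed the threshold without the array-set block (adjusted p = 0.14, limma), with the replicate block (0.067), without the intensity trend (0.062) and with quantile normalization (0.053).

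NF-kappaB subunits and the genes they feed back on rose in 18 of 20 cases, with none lower in limma (9.11% and 8.26% of all probes) and a median change of +2.32. The inhibitor gene Nfkbia was at 8.30 and 7.67 with GW3965 plus poly(I:C), against 5.44 and 3.78 in untreated cells, an increase of 3.38. The subunit genes Nfkb2 and Rel rose by 3.69 and 3.55, the anti-apoptotic gene Cflar by 4.05 and the adaptor gene Traf1 by 3.89. Tnfaip3, an ubiquitin-editing inhibitor, had a difference of 0.22 and Junb one of 0.84, and neither passed. Genes that damp cytokine signalling were higher in 10 of 18 cases and lower in 1, with a median of +1.55, and 6 were higher without the block. Socs1, an inhibitor of Janus kinases, rose by 6.64 (adjusted p = 8.9e-09, limma) and its relative Socs3 by 4.15. Sigirr, an inhibitory relative of the IL-1 receptor, went the other way: it was at -1.53 and -1.47 with both agents, against 2.23 and 1.53 in untreated cells, and fell by 3.38.

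**Figure D3:**
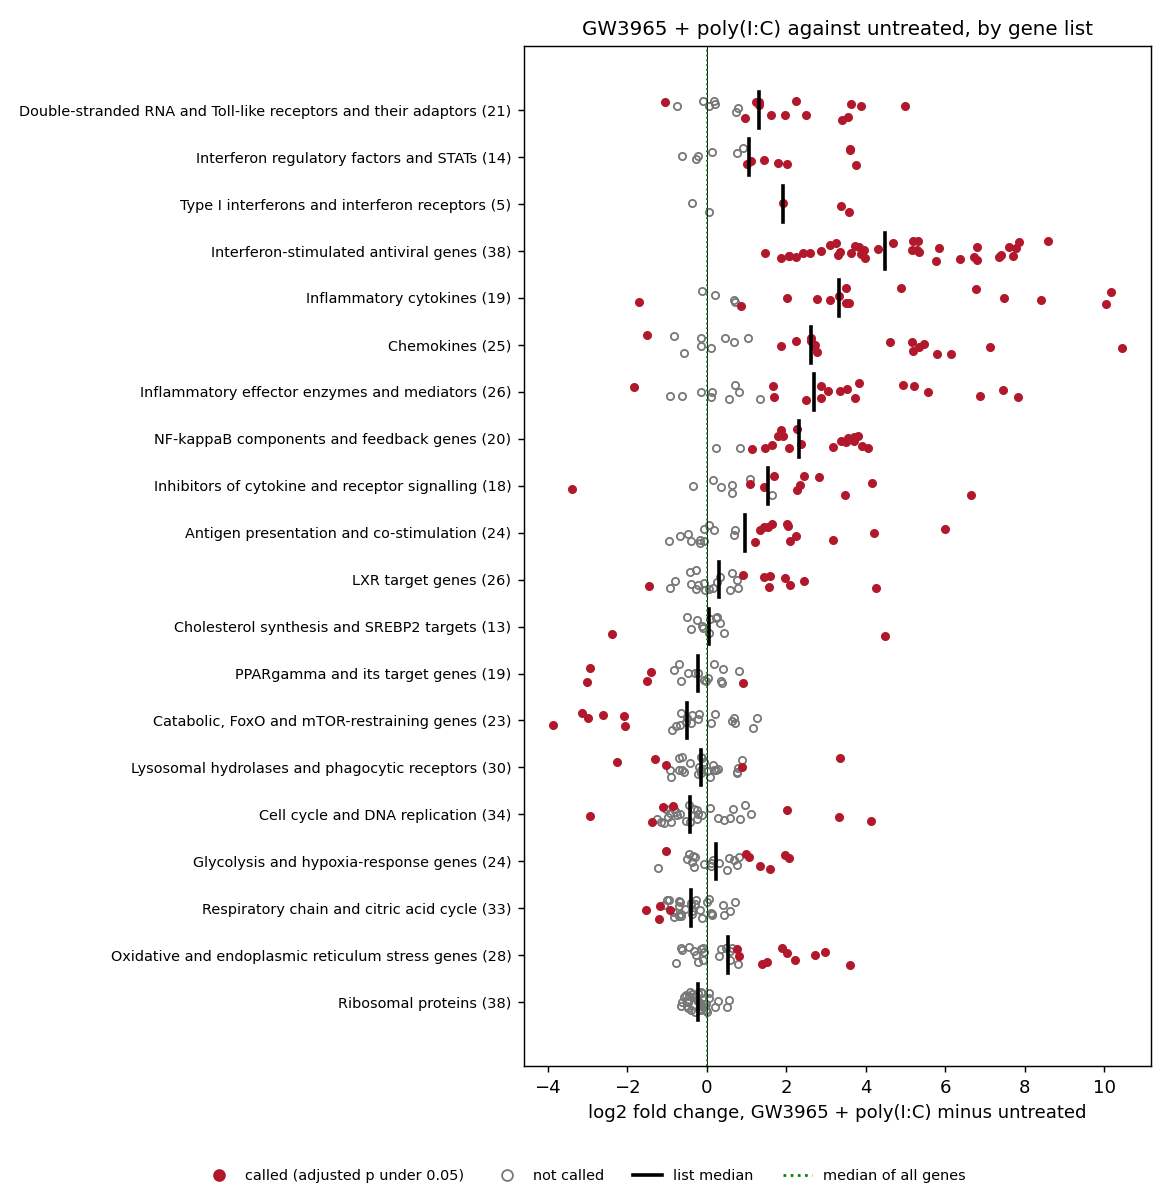
For each gene list, the log2 difference of its measured members between GW3965 plus poly(I:C) and untreated cells, with called members in colour and the list's median marked. The 38 antiviral genes all lie above 0 with a median of 4.49, the cytokine and chemokine lists have medians of 3.31 and 2.61, and the 38 ribosomal protein genes have no call.

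Genes of antigen presentation and co-stimulation were higher in 12 of 24 cases and lower in none, with a median of +0.97 and set medians of 0.50 and 1.48. The co-stimulatory receptor gene Cd40 was at 7.30 and 6.54 with GW3965 plus poly(I:C), against 1.11 and 0.74 in untreated cells, an increase of 5.99, and Cd86 rose by 3.17. The peptide transporter genes Tap1 and Tap2 rose by 4.21 and 2.09, and the immunoproteasome genes Psmb8, Psmb9 and Psmb10 by 1.34, 1.22 and 2.03. The class II genes H2-Aa, H2-Ab1 and H2-Eb1, with differences of -0.68, 0.06 and -0.47, did not pass. Without untreated replicate 2, 8 of the 24 genes were higher, and 6 were without the array-set block. Psmb8 and Psmb9 were not called without untreated replicate 2 (0.87 and 0.93) or GW3965 plus poly(I:C) replicate 2 (1.09 and 0.94), nor was Psmb8 without GW3965 plus poly(I:C) replicate 1 (1.59). Without the block their adjusted p-values were 0.34 and 0.22 in limma, and with the replicate block 0.12 and 0.067.

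LXR target genes held every named gene that passed the direct test against poly(I:C) alone. Of 26 measured, 8 were higher than in untreated cells and 1 was lower, with a median of +0.29. With poly(I:C) alone, measured against the same untreated arrays, 2 were higher and 5 lower, where 10.7% and 8.05% of all probes were, with a median of -0.30. Set directly against poly(I:C) alone, 6 LXR target genes were higher and none was lower, in a comparison where 7 of 9486 probes (0.0738%) passed in limma, these 6 higher (0.0633%) and 1 lower (0.0105%). The list's median difference from poly(I:C) alone was +0.61 (1.00 and 0.78 in the 2 sets) with 17 of 26 genes above 0, against a median of -0.10 and 3370 of 8383 above 0 over all genes. Known LXR targets were chosen for this list with earlier results of these data in view, so its direction is not independent evidence. The count of 8 against untreated was 3 without GW3965 plus poly(I:C) replicate 1 or untreated replicate 2, 5 without either of the other arrays compared, and 5 without the block. The count of 6 against poly(I:C) alone was 1 and 0 without GW3965 plus poly(I:C) replicate 1 or 2, 0 and 2 without poly(I:C) replicate 1 or 2, and 1 without the block.

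Abca1, the transporter that loads cholesterol on apolipoprotein A-I, was at 1.98 and 1.41 with GW3965 plus poly(I:C), -1.05 and -0.57 with poly(I:C) alone, and -2.83 and -2.29 in untreated cells. It rose over untreated by 4.26 (SE 0.46, adjusted p = 1.4e-05, limma), while its difference from poly(I:C) alone of 2.50 did not pass (adjusted p = 0.091, 95% interval 1.52 to 3.49 before adjustment). The 3 groups did not overlap. Abcg1, the partner transporter that exports cholesterol to HDL, was at 6.00 and 5.89 with both agents, 3.47 and 3.61 with poly(I:C) alone, and 3.81 and 4.16 in untreated cells. Its increase was 1.96 over untreated (adjusted p = 0.00083, limma) and 2.40 over poly(I:C) alone (SE 0.33, adjusted p = 0.014). Poly(I:C) alone and untreated cells differed by -0.44 for Abcg1, which did not pass. Apoc1, Pltp and Lpl, which encode lipoprotein components and lipid transfer or lipase enzymes, rose over untreated by 2.09, 1.44 and 0.92. Apoc1 and Lpl were not called on leaving out any 1 of the 4 arrays compared (1.93 to 2.25 and 0.81 to 1.03), and Pltp was called without untreated replicate 1 and not without any of the other 3 (1.05 to 1.57). Without the block the adjusted p-values of Apoc1, Pltp and Lpl were 0.15, 0.084 and 0.22 in limma. Apoe, also an LXR target, had a difference of -0.21 and did not pass, and the probe of Srebf1, which encodes the lipogenic factor SREBP1, was at -3.20 and the floor with both agents and at the floor on both untreated arrays.

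Scd2, a fatty acid desaturase, was at 5.25 and 4.31 with GW3965 plus poly(I:C), 0.54 and 1.13 with poly(I:C) alone, and 1.95 and 2.72 in untreated cells. It was higher than untreated by 2.45 (SE 0.63, adjusted p = 0.015, limma) and higher than poly(I:C) alone by 3.95 (adjusted p = 0.034). The call over untreated was lost without GW3965 plus poly(I:C) replicate 1 (1.68, adjusted p = 0.23) and without untreated replicate 1 (2.21, adjusted p = 0.13) or 2 (2.68, adjusted p = 0.056). Fasn, the fatty acid synthase, was at 4.02 and 4.04 with both agents, 2.54 and 2.01 with poly(I:C) alone, and 2.74 and 2.13 in untreated cells, an increase of 1.59 that passed (adjusted p = 0.012, limma), while a further Fasn probe, at 1.42, did not (adjusted p = 0.0998). The first probe's call was lost without either GW3965 plus poly(I:C) array (adjusted p = 0.082 and 0.064) or without untreated replicate 2 (1.24, adjusted p = 0.13). Cd5l, a secreted factor that supports macrophage survival, was at 6.03 and 5.65 with both agents, 3.96 and 3.90 with poly(I:C) alone, and 4.58 and 3.96 in untreated cells. It rose by 1.57 over untreated (SE 0.24, adjusted p = 0.00032, limma) and by 1.91 over poly(I:C) alone (adjusted p = 0.0058). In each of these genes the arrays with GW3965 lay above both other groups.

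The LXR targets Eepd1, Mid1ip1 and Tmem86a were lower with poly(I:C) alone than in untreated cells, by 2.31, 1.17 and 3.09 on the log2 scale, and were higher with GW3965 present than with poly(I:C) alone. Eepd1, which is known to help ABCA1-mediated cholesterol efflux, was at 3.66 and 3.94 with GW3965 plus poly(I:C), 0.99 and 1.47 with poly(I:C) alone, and 3.44 and 3.65 in untreated cells. Its difference from untreated was 0.26 (adjusted p = 0.59, limma; 95% interval -0.30 to 0.81) and from poly(I:C) alone 2.57 (SE 0.26, adjusted p = 0.00093). Mid1ip1, an activator of acetyl-CoA carboxylase, was at 5.84 and 5.72 with both agents, 4.39 and 3.70 with poly(I:C) alone, and 5.71 and 4.71 in untreated cells. It did not pass against untreated (0.57, adjusted p = 0.15, limma) and was 1.74 above poly(I:C) alone (adjusted p = 0.015). Tmem86a, an enzyme that breaks down lysoplasmalogen, was at 2.59 and 3.22 with both agents, 0.97 and 1.57 with poly(I:C) alone, and 4.41 and 4.31 in untreated cells. It lay between the other groups, 1.45 below untreated on the log2 scale (adjusted p = 0.0018, limma) and 1.64 above poly(I:C) alone (adjusted p = 0.043).

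**Figure D4:**
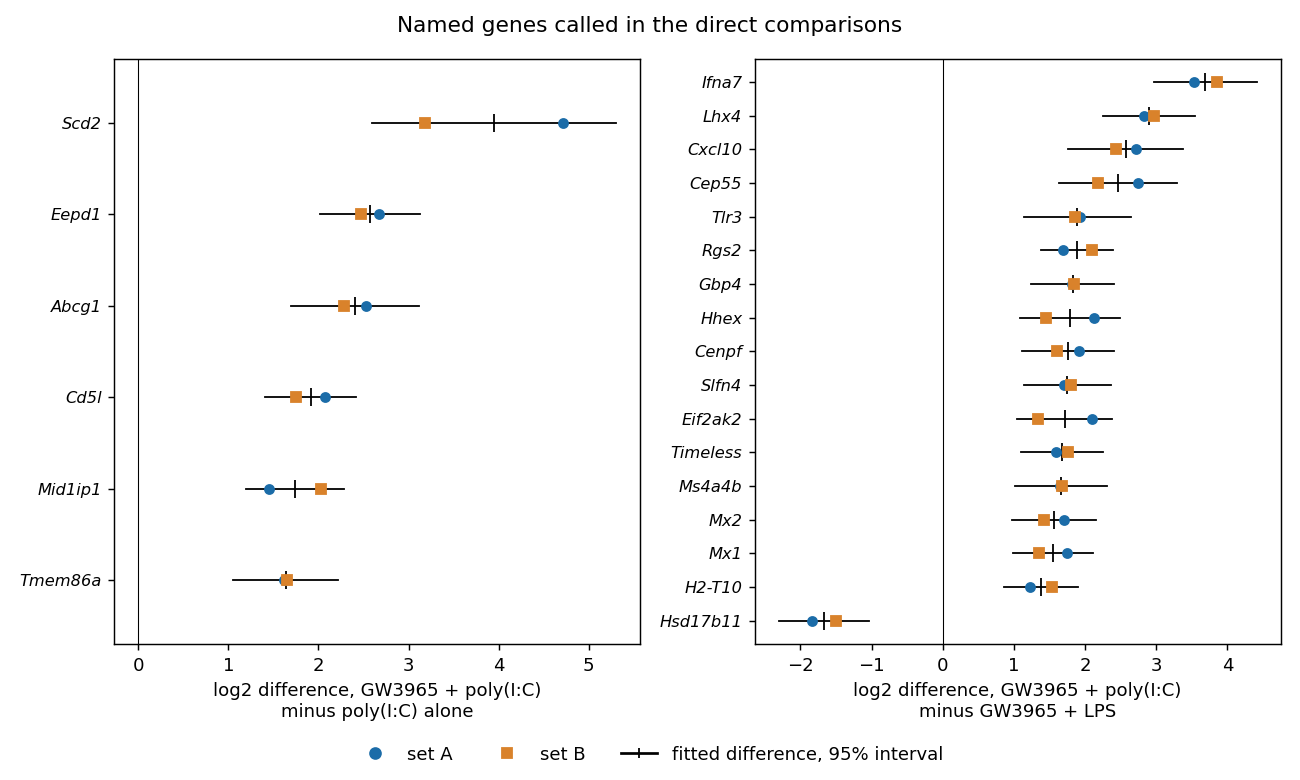
Log2 difference of the named genes called between GW3965 plus poly(I:C) and poly(I:C) alone (left) and between GW3965 plus poly(I:C) and GW3965 plus LPS (right), with the value in each array set, the fitted difference and its 95% interval before adjustment. All 6 genes on the left are higher with GW3965, from Tmem86a at 1.64 to Scd2 at 3.95, and Ifna7 leads the right panel at 3.69.

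No inflammatory or antiviral gene passed the direct test against poly(I:C) alone, in which 590 probes had an unadjusted p under 0.05 and the 95% interval reached a median of 0.833 to either side of a difference. All 25 chemokine genes had a negative difference, with a median of -0.78 (-1.27 and -0.28 in the 2 sets). Over all genes, 5013 of 8383 were below 0, with a median of -0.10 (-0.21 and 0.00 in the 2 sets). Ribosomal protein genes, 34 below and 4 above 0, had set medians of -0.64 and 0.25. Respiratory chain and citric acid cycle genes, 25 below and 8 above 0, had set medians of -0.46 and 0.14. Part of the lower values in set A was thus shared by unrelated lists. Ccl12 had a difference of -1.74, Ccl7 of -1.26 and Cxcl10 of -1.05, with adjusted p-values of 0.51, 0.51 and 0.65 in limma. Without GW3965 plus poly(I:C) replicate 1 the chemokine median was -0.46, and with quantile normalization it was -0.67. Cytokine genes had a median of -0.62 and antigen presentation genes one of -0.58, and quantile normalization moved these to -0.28 and -0.33. Over the 38 antiviral genes the median was -0.13, with 8 above 0, and it was 0.09 with quantile normalization, so it had no settled direction. For Ifit1 the 95% interval of the difference was -0.89 to 0.76 and for Mx1 -0.97 to 0.15, before adjustment.

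**Figure D5:**
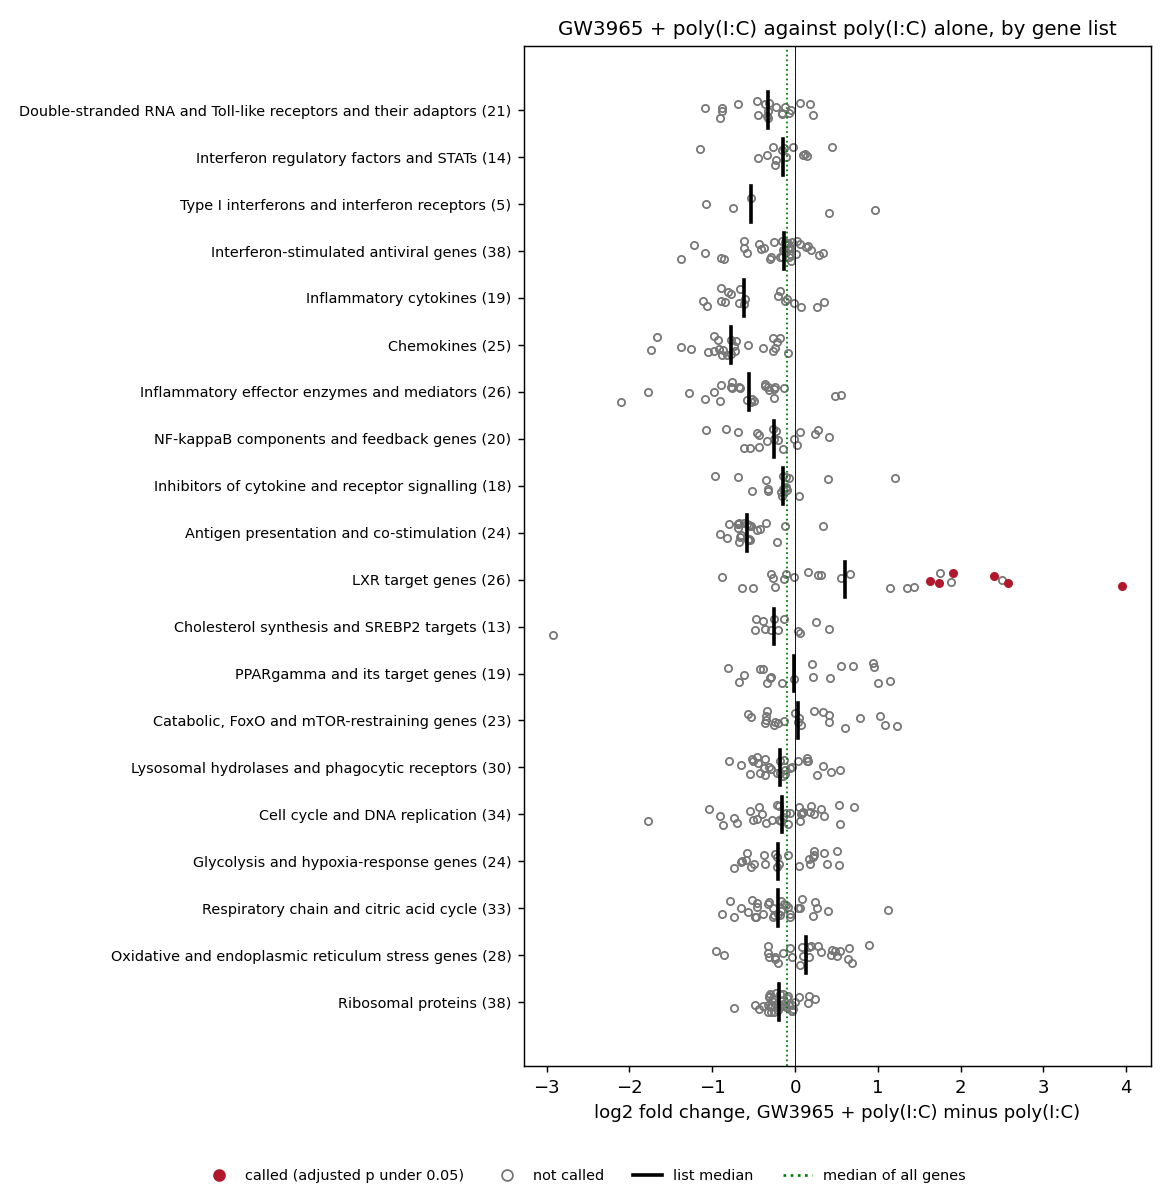
For each gene list, the log2 difference of its measured members between GW3965 plus poly(I:C) and poly(I:C) alone, with called members in colour and the list's median marked. The LXR target genes have a median of 0.61 and 6 called members, the 25 chemokine genes all lie below 0 with none called, and the antiviral genes have a median of -0.13.

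The oxysterol-making enzymes showed separate patterns. Ch25h, which makes 25-hydroxycholesterol and is itself an interferon target, was at 2.20 and 1.77 with GW3965 plus poly(I:C), 4.97 and 4.85 with poly(I:C) alone, and -1.71 and -3.27 in untreated cells. It rose over untreated by 4.48 (SE 0.65, adjusted p = 0.00022, limma), and its difference from poly(I:C) alone was -2.93 (adjusted p = 0.20), with no overlap between the 3 groups. Cyp27a1, which makes 27-hydroxycholesterol, was at 0.72 and 1.01 with both agents, against 3.20 and 3.30 in untreated cells, and fell by 2.39. These 2 were the only calls among 13 cholesterol genes, whose median difference from untreated was 0.06. The synthesis genes Cyp51 and Mvk, with differences of 0.42 and -0.49, did not pass.

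The genes that fell included regulators of metabolism and growth. Dbp, a clock-controlled transcription factor, was at -1.45 and -2.52 with GW3965 plus poly(I:C), 0.03 and -1.76 with poly(I:C) alone, and 3.01 and 1.92 in untreated cells. It fell by 4.45 relative to untreated (SE 0.38, adjusted p = 1.3e-06, limma), the largest decrease at a named probe, and its stimulated and untreated arrays did not overlap. Deptor, an inhibitor of mTOR, was at -0.43 and -0.16, against 3.72 and 3.45 in untreated cells, and fell by 3.88, with a further probe at -4.17. Among 23 genes of catabolism, FoxO signalling and mTOR restraint, 6 fell and none rose in limma (8.26% and 9.11% of all probes), with a median of -0.51. This list too was chosen with earlier results of these data known, so its count is not independent evidence. Lpin1, a phosphatidate phosphatase, fell by 3.13, the stress-induced Sesn1 by 2.99, the glucocorticoid target Tsc22d3 by 2.62 and the translation inhibitor gene Eif4ebp2 by 2.09. Tsc1 at -0.39 and Foxo1 at -0.77 did not pass. Tsc22d3 was not called on leaving out any 1 of the 4 arrays compared (-2.94 to -2.30), nor was Eif4ebp2 without GW3965 plus poly(I:C) replicate 1 (-1.82) or untreated replicate 1 (-1.40), and neither was called without the block (adjusted p = 0.081 and 0.082, limma). The list's median was -0.30 without untreated replicate 2.

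Pparg, the gene of the lipid-sensing receptor PPARγ, was at 1.93 and 0.83 with GW3965 plus poly(I:C), 0.36 and 0.49 with poly(I:C) alone, and 4.30 and 4.47 in untreated cells. It fell by 3.01 relative to untreated (SE 0.33, adjusted p = 1.9e-05, limma). Its target Fabp4, a fatty acid carrier, was at 4.99 and 5.62 with both agents, 6.29 and 5.94 with poly(I:C) alone, and 8.54 and 7.97 in untreated cells, and fell by 2.95. Both genes were below untreated on every array of the stimulated groups. Over 19 genes of PPARγ and its targets, 4 were lower and 1 was higher, Lpl, with a median of -0.22. Cd36, a scavenger receptor and PPARγ target, had a difference of 0.81 and did not pass, and its groups overlapped. Cebpa, a transcription factor of myeloid differentiation, fell by 2.60, while its relative Cebpb rose by 2.05.

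Other named decreases were Susd3, a membrane protein gene, by 4.09, Cdo1, which encodes cysteine dioxygenase, by 3.83, and Hyal1, a hyaluronidase, by 3.58. Cdo1 did not pass without GW3965 plus poly(I:C) replicate 1 (adjusted p = 0.072, limma) or untreated replicate 2 (-3.01, adjusted p = 0.11). Tst, a mitochondrial sulfurtransferase, fell by 3.58, Hdac5, a class IIa histone deacetylase, by 3.25 and Mxd4, an antagonist of MYC, by 3.36. Gpr162, Bex1, Ica1 and Tmem273 fell by 3.70, 3.48, 3.41 and 3.80. Tns1, which links integrins to actin, fell by 3.78, and that call was lost without GW3965 plus poly(I:C) replicate 1 (-3.06, adjusted p = 0.17) and without untreated replicate 1 (-3.75, adjusted p = 0.097) or 2 (-3.81, adjusted p = 0.076).

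Genes of energy metabolism and proliferation were set beside all 8383 genes tested, of which 773 were higher and 673 lower. Of 24 glycolysis and hypoxia-response genes, 6 were higher and 1 lower, with a median of 0.23: Pfkp, a phosphofructokinase, rose by 1.98 and Hif1a, the hypoxia-inducible factor, by 1.58, and Tpi1 fell by 1.02. Without GW3965 plus poly(I:C) replicate 1 or either untreated array 3 were higher, and the fall of Tpi1 was not called on leaving out any 1 of the 4 arrays (-1.07 to -0.96). The glycolysis median was 0.71 without GW3965 plus poly(I:C) replicate 2, and 0.41 and 0.35 without untreated replicate 1 or 2. Only 2 glycolysis genes were higher without the block, and Hif1a was not called there (adjusted p = 0.10). Of 33 respiratory chain and citric acid cycle genes, 4 fell and none rose in limma (8.26% and 9.11% of all probes), with a median of -0.40 (-0.79 and -0.11 in the 2 sets), and 13 fell and 1 rose with quantile normalization. The 4 were Idh3g and Suclg1, subunits of citric acid cycle enzymes, and Idh1 and Mdh1, the cytosolic counterparts of cycle enzymes that act on isocitrate and malate. Their decreases were 0.93 to 1.52, and none was called without the block. Without untreated replicate 1, 1 of the 33 fell, and without GW3965 plus poly(I:C) replicate 1, 2 did. The median of the 33 was -0.19 and -0.76 without GW3965 plus poly(I:C) replicate 1 or 2, and -0.72 without untreated replicate 2. Among 34 cell cycle genes, 3 rose and 4 fell, near the 9.11% and 8.26% of all probes, with a median of -0.43. Mki67, a marker of cycling cells, rose by 3.31, the cyclin gene Ccnd2 by 4.12 and the cell cycle inhibitor gene Cdkn1a by 2.02, whereas the checkpoint kinase gene Chek2 fell by 2.94. The cyclins and kinases of mitosis Ccna2, Ccnb2 and Cdk1, with differences of -0.96, -0.91 and -0.93, did not pass. Without GW3965 plus poly(I:C) replicate 1 or untreated replicate 1, 1 cell cycle gene fell, and without either of the other arrays 2 did. The cell cycle median was -0.65 without GW3965 plus poly(I:C) replicate 2, and -0.76 and -0.15 without untreated replicate 1 or 2.

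Stress genes were higher in 10 of 28 cases and lower in none, with a median of +0.54, and quantile normalization gave 7 higher and 3 lower. The heat shock genes Hspa1a and Hspa1b, near-identical copies whose probes may bind both transcripts, rose by 3.60 and 2.98. The cystine transporter gene Slc7a11 and the glutathione synthesis gene Gclm rose by 2.72 and 1.90. The count was 5 without GW3965 plus poly(I:C) replicate 1 and 6 without untreated replicate 1 or without the block. Ribosomal protein genes gave no call among 38 measured at an adjusted p under 0.05 in limma. Their median of -0.21 had no settled direction: it was -0.58 and 0.23 in the 2 sets, 0.051 and -0.43 without GW3965 plus poly(I:C) replicate 1 or 2, and 0.027 and -0.51 without untreated replicate 1 or 2. Of 30 lysosomal and phagocytic genes, 2 rose and 3 fell, near the 9.11% and 8.26% of all probes. The receptor kinase gene Axl, which clears dying cells and is induced by interferon, rose by 3.35, and its ligand gene Gas6 fell by 2.26. Without untreated replicate 1, 1 lysosomal or phagocytic gene rose and 1 fell, and without untreated replicate 2 or GW3965 plus poly(I:C) replicate 1, 1 rose and 2 fell.

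Markers of other cells that a peritoneal preparation could hold were examined beside these results. Over all probes, 9.11% were called higher and 8.26% lower, so a single call among 13 or 8 markers was near that share. Of 11 B cell markers, 4 were lower (Cd79b by 2.07, Vpreb3 by 1.76, Cr2 by 1.30 and Fcer2a by 1.01) and none was higher, with summed intensities of 27.3 and 27.8 with GW3965 plus poly(I:C), against 32.4 and 29.6 in untreated cells. Of 13 T and NK cell markers, 1 was lower (Cd2 by 1.49), with sums of 6.65 and 5.14, against 10.4 and 5.88. Of 8 neutrophil markers, 1 was higher (Camp by 3.17), with sums of 21.2 and 20, against 30.1 and 19.0. Of 5 dendritic cell markers, Cd83 was higher by 1.78 and Itgax lower by 1.17, with sums of 25.7 and 21.2, against 53.0 and 27.4. The 9 mast cell and eosinophil, 12 fibroblast and mesothelial and 6 erythroid and platelet markers gave no call in limma. No marker of the other cell types had both arrays at the floor, except 1 of the fibroblast list in untreated cells. The B cell markers gave 2 calls without GW3965 plus poly(I:C) replicate 1 or either untreated array, and 1 without the block. Cd2 was not called on leaving out any 1 of the arrays compared (-1.75 to -1.23), and Itgax not without GW3965 plus poly(I:C) replicate 1 (-1.11) or 2 (-1.23) or untreated replicate 1 (-0.77). Neither was called without the block (adjusted p = 0.10 and 0.19, limma) or with the replicate block (0.057 and 0.098). The part of these cells in the lower B cell genes and in Lta was not tested.

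Promoter letters were counted for the groups of changed genes. Of 38 antiviral genes, 29 had a promoter in the table, and 62.1% of those held an interferon regulatory factor core within 250 bases before the start, against 17.4% of 6706 tested genes. At least 2 cores, as in Ifit1, were held by 44.8% of the antiviral promoters, against 3.09% of the tested ones. The 621 promoters of called increases held a core in 22.1% of cases and the 553 of called decreases in 15.2%. The NF-kappaB form was held by 25.0% of 16 chemokine promoters and 23.5% of 17 promoters of the NF-kappaB list, against 4.89% of tested genes. The half-site AGGTCA was held by 15% of 20 LXR target promoters, against 12% of tested genes, and by 43.8% of the 16 chemokine and 20.7% of the 29 antiviral promoters.

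Against GW3965 plus LPS, the bacterial stimulus with the same agonist, 18 probes were higher with GW3965 plus poly(I:C) (0.19%) and 1 was lower (0.0105%) in limma, 0.2% of those tested, while 936 had an unadjusted p under 0.05. Ifna7 had the largest of these differences: it was at 3.22 and 2.72 with GW3965 plus poly(I:C), against -0.31 and -1.14 with GW3965 plus LPS, a difference of 3.69 (adjusted p = 0.00027, limma). The untreated arrays, at -0.42 and -0.78, lay in the range of GW3965 plus LPS. Cxcl10 was at 8.48 and 8.29 with GW3965 plus poly(I:C), against 5.77 and 5.85 with GW3965 plus LPS, a difference of 2.57 (adjusted p = 0.015, limma) between groups that both stood above untreated. Tlr3, Eif2ak2, Gbp4, Slfn4, Mx2 and Mx1 were higher by 1.89, 1.72, 1.83, 1.75, 1.56 and 1.55. Rgs2, which limits G protein signalling, was at 5.50 and 5.37, against 3.81 and 3.28 with GW3965 plus LPS and 6.83 and 6.68 in untreated cells, so it was 1.89 higher than with LPS while 1.32 lower than untreated. The 26 LXR target genes gave no call between the 2 groups with GW3965 in limma, with a median difference of -0.05. The count of 18 depended on single arrays: it was 4 and 2 without GW3965 plus poly(I:C) replicate 1 or 2, and 3 and 65 without GW3965 plus LPS replicate 1 or 2.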

How the data were processed

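RNA of 14 samples was hybridised to one-colour arrays with biotin labelling, per the labels. The authors deposited 1 linear intensity per probe and array, already scaled to an array median of 1. The methods of scaling and background correction are not stated in the labels. Each array was placed by its title. The 2 arrays with missing or misplaced characters in the title were read as spelling slips.

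Of the probes, 8983 had 1 symbol in the platform's annotation, 1 had several and 1028 had none. Symbols were updated through gene IDs, which changed 0. Intensities were raised to the 5th percentile of positive values (0.0686) and log2 transformed. No scaling was added. Tested probes had a value on every array and lay above the 20th percentile on at least 2 of 14 arrays, which left 9486, of which 8512 have 1 symbol. limma 3.58.1 in R 4.3.3 fitted group means and the array set (10th percentile above or below 0.1) with an intensity trend, two-sided and with 6 residual degrees of freedom. It was checked on data simulated from the same model with independent normal noise, which cannot show how departures of the real arrays from that model affect the counts. A probe was called at a Benjamini-Hochberg adjusted p under 0.05, and intervals are 95% before adjustment. The number of arrays limits the precision. The probe with the highest mean represents a gene. Of 125 genes with several probes, 32 had exactly 1 called, and 4 had probes called in opposite directions.

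Replicate 1 is the set A array in every group except GW7845 plus LPS. Deviations from the group mean of GW3965 plus poly(I:C) replicate 1 correlated at 0.354 with untreated, 0.426 with poly(I:C), 0.413 with LPS, 0.471 with GW3965 plus LPS and 0.407 with GW7845 plus poly(I:C), and at -0.540 with GW7845 plus LPS. The signs follow the array set. Because the sets were defined from these same intensities, the correlations do not show independently that the arrays are pairs.

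Named genes are the 15 largest increases and 15 largest decreases with separated arrays and no value at the floor, up to 8 further bounds, a list of key genes, 4 members a list by p, and the genes called in the direct comparisons (at most 12 by p). Other members and the lowered or raised genes of lists named here were chosen after their values were seen. The comparison, gene lists and tests were chosen with earlier results of these data known. Promoters are from RefSeq, build GRCm38.p6; of a gene with several, the first by coordinate was used. Alternatives changed the block, normalization, floor, filter, arrays fitted, trend and fold threshold, or left out an array; the remaining array of a group is then assumed to vary like those of the other groups.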

Additional observations from a re-analysis of the deposited data

Results flagged for a closer look

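In 7 probes the level with GW3965 plus poly(I:C) differed from that with poly(I:C) alone by the direct test in limma. Without a group given GW3965 alone, this test cannot tell a changed response to poly(I:C) from an effect of GW3965 by itself. The log2 differences were 3.95 for Scd2, 2.57 for Eepd1, 2.40 for Abcg1, 1.91 for Cd5l, 1.74 for Mid1ip1, 1.64 for Tmem86a and -2.68 for probe 4439, which has no gene symbol. That probe was at 0.91 and -1.38 with GW3965 plus poly(I:C), against 3.50 and 1.38 with poly(I:C) alone, and at 3.07 and 0.95 in untreated cells.

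In 19 probes the response in the presence of GW3965 differed between poly(I:C) and LPS. The log2 differences were 3.69 for Ifna7, 2.90 for Lhx4, 2.57 for Cxcl10, 2.47 for Cep55, 1.89 for Rgs2, 1.89 for Tlr3, 1.83 for Gbp4, 1.79 for Hhex, 1.76 for Cenpf, 1.75 for Slfn4, 1.72 for Eif2ak2, 1.68 for Timeless, 1.67 for Ms4a4b, 1.56 for Mx2, 1.55 for Mx1 and 1.38 for H2-T10. Probes 516 and 809, without a symbol, differed by 2.55 and 1.80, and the steroid dehydrogenase gene Hsd17b11 by -1.67. Groups of 2 arrays were too small for a check of single arrays that stand apart.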

How the results depend on the processing

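Against untreated cells, 864 probes were higher and 784 lower. The counts were 442 and 194 with no array-set block, 598 and 394 with the replicate block in place of the set, and 790 and 902 with quantile normalization. Leaving out 1 array gave 514 to 896 higher and 271 to 843 lower. Both upper ends came without GW7845 plus poly(I:C) replicate 1, an array outside this comparison. Without any 1 of the 4 arrays compared, both counts were below 864 and 784. Against poly(I:C) alone, the 6 higher and 1 lower became 1 and 0 with no block or no intensity trend and 3 and 0 with the replicate block; fitting only the 4 groups gave 4 lower. Leaving out 1 array gave 0 to 9 higher and 0 to 4 lower, and both upper ends again came without GW7845 plus poly(I:C) replicate 1. Against GW3965 plus LPS, the 18 higher and 1 lower became 2 and 0 with no block, 6 and 0 with the replicate block, 8 and 0 in the 4 groups and 3 and 0 without the trend. Quantile normalization gave 4 lower, and leaving out 1 array 2 to 65 higher and 0 to 8 lower. Quantile normalization moved the median of all probes against poly(I:C) alone from -0.10 to 0.01. Of 122 named genes checked against untreated, signs changed for Srebf1 (-0.061 to 0.73) and Apoe (-0.50 to 0.080), both without untreated replicate 1, and for Ifngr1 (-1.04 to 0.29) without GW3965 plus poly(I:C) replicate 2 or untreated replicate 2 (0.12), as arrays were left out in turn. None of the 3 was called. Eepd1 passed against poly(I:C) alone with no block (adjusted p = 0.014, limma) but not without GW3965 plus poly(I:C) replicate 2 (0.052) or poly(I:C) replicate 1 (0.065). The cause of these changes was not tested.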

Other observations

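Some changed genes belong to none of the lists above. The probe annotated Cep55, a gene of cell division, was at 6.23 and 6.57 with GW3965 plus poly(I:C), against -0.21 and -1.02 in untreated cells, an increase of 7.01. The probe annotated Lhx4, a developmental transcription factor, was at 4.31 and 4.44, against -0.78 and -1.70, an increase of 5.62. Timeless, a gene of replication fork protection, was at 1.82 and 2.08, against -1.38 and -1.33, an increase of 3.30. In these 3 probes the arrays with GW3965 plus LPS lay between those of GW3965 plus poly(I:C) and of untreated cells.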
